A study of Mus musculus with 20 samples.

Results

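RNA sequencing counts of 10 genes used as markers of mammary stem and progenitor cells (Cd44, Cd24a, Prom1, Kit, Ly6a, Sox9, Sox10, Trp63, Procr and Bmi1) were examined in breast tumors and tumor cell lines of PyMT mice. The genes were chosen by name, by a rule that uses no counts although earlier results of these data were known, and are 10 of the 45706 genes in the count files. PyMT mice carry the polyoma virus middle T oncogene under the MMTV promoter, which is active in mammary epithelium, and were kept on a C57BL/6N background. Cathepsin D (CTSD, gene Ctsd) is a lysosomal protease, and the series asks how its loss in the epithelium of the tumor changes gene expression. Tumors of 18-week-old MMTV-cre;Ctsd-/- mice (n = 4), in which the same promoter drives cre, were set against tumors of CTSD-competent control mice (n = 4), which carried the untargeted or the loxP-flanked Ctsd allele and were labelled wild type. A whole tumor also holds fibroblasts, vessels, fat and immune cells, in which this cre is not meant to act. The spontaneously immortalized tumor cells were of Ctsd+/+ or Ctsd-/- genotype and were grown in medium with 1% FCS for 10 days (1% FCS) or for 12 weeks (1% FCS LT), with n = 3 in each of the 4 groups. The cells of each genotype were 1 line made from end-stage tumors, so that genotype and cell line cannot be told apart, and p-values in cells measure the spread between cultures.

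The mammary gland is a bilayered epithelium in which basal cells surround luminal cells, and the members mark different cells of it. Cd24a, a small lipid-anchored surface protein, and Cd44, the hyaluronan receptor, are used together to sort mammary cells, and a high ratio of CD44 to CD24 is a common operational mark of mesenchymal or stem-like breast cancer cells. Prom1 (CD133) is a membrane glycoprotein of luminal cells, Kit, the receptor of stem cell factor, marks luminal progenitors, and Ly6a (Sca-1) is a lipid-anchored surface protein of the Ly6 family. Procr, the endothelial protein C receptor, marks a population of basal mammary stem cells as well as endothelium. Trp63 (p63) is the transcription factor that maintains basal cells, Sox9 and Sox10 are related SoxE transcription factors of luminal progenitor and basal or neural crest-like states, and Bmi1 is a subunit of Polycomb repressive complex 1 that keeps Cdkn2a silent.

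The stretches of sequence that bear on the measurement of the members are shown first. Sox9 and Sox10 are paralogs whose levels went apart between tumors and cells, and their longest exact run in common, of 44 bases, lies at positions 247 to 290 of the Sox9 coding sequence and 244 to 287 of that of Sox10 in GENCODE M21. It is in capitals below, with 24 bases on each side in lower case.
Sox9: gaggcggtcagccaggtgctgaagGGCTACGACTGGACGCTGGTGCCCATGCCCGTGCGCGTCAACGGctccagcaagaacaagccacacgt
Sox10: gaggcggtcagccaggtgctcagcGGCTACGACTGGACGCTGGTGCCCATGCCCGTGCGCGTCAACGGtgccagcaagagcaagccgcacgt
Ly6a shares coding runs of 26 to 80 bases with Ly6f, Ly6g, Ly6c1, Ly6c2 and Ly6i of its family and of at most 11 bases with the other 11 members compared, and the run of 80 bases, at positions 50 to 129 of both coding sequences, is that with Ly6i.
Ly6a: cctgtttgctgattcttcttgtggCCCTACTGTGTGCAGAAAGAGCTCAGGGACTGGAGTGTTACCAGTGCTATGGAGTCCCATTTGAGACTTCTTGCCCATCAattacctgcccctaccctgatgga
Ly6i: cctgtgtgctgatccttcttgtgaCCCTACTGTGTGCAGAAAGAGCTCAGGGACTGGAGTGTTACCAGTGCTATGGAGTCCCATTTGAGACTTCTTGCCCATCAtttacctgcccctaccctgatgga
Of all distinct stretches of 50 bases in the transcripts of a member, 19.0% were also found in another gene for Ly6a (mostly Ly6c1), 16.7% for Bmi1 (mostly the predicted gene Gm5946), 2.75% for Cd24a and 0.344% for Prom1, and 0 for the other 6 members. Reads that map to several places were not counted, and how many reads this cost Ly6a and Bmi1 depends on the read length, which is not given in the sources used here, so their levels are uncertain. Prom1 overlaps Gm16401 on the other strand and Gm42716 on its own, and Trp63 overlaps Gm24928 on the other strand and Gm27005 on its own. Reads on exons of 2 genes at once were counted for neither, and the stranded counts of cells separate genes on opposite strands while those of tumors do not.

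Prom1 and Procr differed between the genotypes of cells past both thresholds at both culture times, in opposite directions, and a window of 300 bases at an annotated RefSeq start of each (250 before and 50 after, GRCm38.p6) is printed for that reason. The Prom1 window is chr5:44101687-44101986 on the minus strand and the Procr window chr2:155750967-155751266 on the plus strand, and the first lies within Prom1 while the second straddles the 5′ end of Procr as GENCODE M21 draws these genes. The motifs were chosen from general knowledge of epithelial gene control, and no binding was measured. Capitals mark TGACTCA, the motif of AP-1, and CACCTG, the E-box form bound by Zeb1 and Snai2, searched on both strands.
Prom1: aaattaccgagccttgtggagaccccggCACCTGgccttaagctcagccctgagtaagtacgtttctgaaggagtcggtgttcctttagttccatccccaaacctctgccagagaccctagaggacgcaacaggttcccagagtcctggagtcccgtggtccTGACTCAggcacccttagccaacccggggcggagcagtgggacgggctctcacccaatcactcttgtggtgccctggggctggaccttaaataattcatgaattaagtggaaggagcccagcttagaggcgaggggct
Procr: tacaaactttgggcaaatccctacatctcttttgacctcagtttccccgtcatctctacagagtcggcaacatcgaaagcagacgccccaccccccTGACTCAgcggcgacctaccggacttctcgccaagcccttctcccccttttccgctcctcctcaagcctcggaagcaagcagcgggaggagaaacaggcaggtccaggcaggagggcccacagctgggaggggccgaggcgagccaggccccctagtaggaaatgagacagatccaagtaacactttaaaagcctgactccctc
TGACTCA stood 88 bases before the start of Prom1 and 154 bases before that of Procr, and 5.20% of 32851 promoter windows of this length hold it. CACCTG stood 222 bases before the start of Prom1, and 20.2% of all windows hold it. Neither motif was found in the windows of Cd44, Kit and Bmi1 or at a second start of Prom1. Cd24a, Ly6a, Sox9, Sox10 and Trp63 had no entry among the promoter windows.

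Counts on genes ranged from 49725437 to 64291587 in tumors and from 33622831 to 40239762 in cells, and levels are given as CPM, the counts of a gene scaled to a library of common size. Ctsd itself was at 1781 to 2617 CPM in control tumors and 360.2 to 1295 CPM in MMTV-cre;Ctsd-/- tumors, at 1267 to 4199 CPM in Ctsd+/+ cells and at 114 to 192.4 CPM in Ctsd-/- cells. All control tumors carried 1 code and all MMTV-cre;Ctsd-/- tumors another, and these codes are taken here as those of sequencing runs. Effects of the run and of the genotype in tumors therefore cannot be told apart. Runs of cells were read in the same way. Among the cells, the 1% FCS Ctsd+/+ samples stood apart from the other 3 groups. The summed level of 14 epithelial markers was 1205 to 2664 CPM in them against 8415 to 17140 CPM in the other cell samples, and that of 10 fibroblast markers 1244 to 3355 CPM against 3.05 to 99.8 CPM. Most of that sum came from the fibroblast markers Col1a1 (1437 CPM on average) and Pdgfrb (468.5 CPM). Pdpn was at 47.4 CPM, whereas Dpt and Lum were at 0 in every 1% FCS Ctsd+/+ sample and Col1a2 at 2.27 CPM on average. Every result below that uses the 1% FCS Ctsd+/+ samples has this difference beside it, and its part in the result was not tested.

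The members differed widely in their levels, compared per kilobase of exon. In control tumors the mean level ran from 178 CPM per kb for Cd24a, 173 for Ly6a, 65.3 for Sox10, 29.6 for Sox9, 26.5 for Kit, 18.4 for Cd44, 11.5 for Prom1 and 7.20 for Bmi1 down to 2.07 for Trp63 and 2.01 for Procr. Of the 9 pairs of neighbours in this order, 6 had ranges that overlapped between tumors, and 3 did not (Ly6a and Sox10, Sox10 and Sox9, Bmi1 and Trp63). In MMTV-cre;Ctsd-/- tumors Ly6a (159 CPM per kb) stood before Cd24a (147) and Procr (3.11) before Trp63 (2.03), each pair with overlapping ranges, and the other members kept their place. In 3 of the 4 groups of cells the first places were held by Cd44, Cd24a and Ly6a, and in 1% FCS Ctsd+/+ cells Sox9 stood just before Ly6a. The levels of Cd44, Cd24a and Ly6a were 206, 224 and 282 CPM per kb in 1% FCS Ctsd-/- cells, where neighbouring ranges overlapped, and 102, 83.9 and 27.2 in 1% FCS Ctsd+/+ cells, where Ly6a overlapped Sox9 (28.9) and not Cd24a. Sox9 was between 26.3 and 59.1 CPM per kb in all 6 groups and Bmi1 between 5.54 and 12.6, the narrowest spans among the members as a ratio of the highest to the lowest mean.

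**Figure D1:**
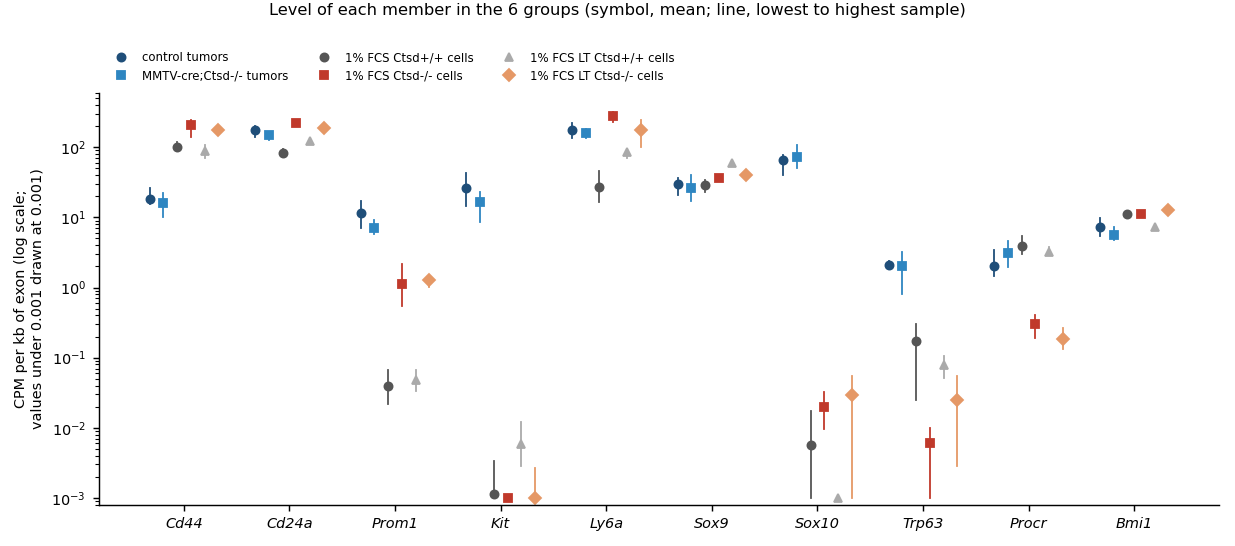
Mean level of each member in the 6 groups in CPM per kb of exon on a log axis, with lines from the lowest to the highest sample (n = 4 tumors, n = 3 cell samples a group) and values under 0.001 drawn at that level. Kit and Sox10 are above 8 CPM per kb in every tumor and close to 0 in cells, and Cd44 is higher in cells than in tumors.

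Kit and Sox10 had ample counts in the tumors and next to none in the cell lines. Kit had 77.5 to 376 CPM in the 8 tumors and 0 to 4 counts in each of the 12 cell samples, and Sox10 had 121 to 328 CPM in tumors and 0 to 7 counts in cells. Where a group of cells had 0 counts throughout, as for Kit in 1% FCS Ctsd-/- cells and Sox10 in 1% FCS LT Ctsd+/+ cells, 3 counts would have stood for at most 0.0887 and 0.0811 CPM. Trp63 followed the same order, with 6.67 to 26.7 CPM in tumors and 0 to 2.55 CPM in cells. Mast cells also use Kit, and Schwann cells Sox10. The 8 mast cell markers summed to 10.9 to 53.8 CPM in tumors and at most 0.482 CPM in cells, whereas the 8 Schwann cell markers, at 98.1 to 278 CPM in tumors and 58.6 to 111 CPM in cells, overlapped between them. Their part in the Kit and Sox10 levels was not tested, and in bulk tissue fewer cells of a type and less RNA per cell cannot be told apart. Tumors and cells differed in RNA input, library type and run, so these levels stand side by side without a test.

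In tumors, the question was whether loss of CTSD in the mammary epithelium went with a change of the members. All 10 passed the filter on low counts and were tested with edgeR, and an unadjusted p under 0.1, the study's threshold for tumors, was met by 2 of them, Prom1 and Kit, both lower in MMTV-cre;Ctsd-/- tumors. Of all 18617 genes tested, 8.44% were higher and 8.27% lower at this threshold, and 0.00537% (1 gene, no member) passed an adjusted p of 0.05. The adjusted p-values of the members ranged from 0.555 to 0.984, and 1 member, Prom1, had an unadjusted p under 0.05. The fitted log2 fold change was negative for 8 members and positive for Sox10 and Procr, with a median of -0.19 against 0.0007 over all genes tested. Every member had overlapping ranges in the 2 groups of tumors.

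Prom1 had 125, 97.3, 56.3 and 50.7 CPM in control tumors 1 to 4 and 50.6, 46.0, 65.9 and 40.9 CPM in MMTV-cre;Ctsd-/- tumors 1 to 4. Its level was highest in control tumors 1 and 2, while controls 3 and 4 lay within the range of the other group. The log2 fold change was -0.69 (SE 0.305), with an unadjusted p under 0.05 and an adjusted p = 0.555 in edgeR's two-sided quasi-likelihood test. Kit had 376, 264, 175 and 129 CPM in control tumors 1 to 4 and 205, 150, 151 and 77.5 CPM in MMTV-cre;Ctsd-/- tumors, a log2 fold change of -0.69 (SE 0.373), with an adjusted p = 0.592. Control tumor 1 was the highest for both genes. The share of reads on several genes at once was 10.2%, 11.5%, 15.5% and 18.8% in control tumors 1 to 4, rising as both genes fell. In MMTV-cre;Ctsd-/- tumors 1 to 4 it was 12.0%, 10.1%, 9.54% and 8.62%, and both genes were lowest at the lowest share. The part of this share in the Prom1 and Kit counts was not tested. Without control tumor 1 the log2 fold change was -0.42 for Prom1 and -0.38 for Kit, and neither passed the threshold. The call of Prom1 was also lost without control tumor 2 or MMTV-cre;Ctsd-/- tumor 4 (-0.60 each), and that of Kit without control tumor 2 or any of MMTV-cre;Ctsd-/- tumors 2, 3 and 4 (-0.71 to -0.48). Without MMTV-cre;Ctsd-/- tumors 3 and 4, a choice made after the values were seen, Prom1 kept its call (log2 fold change -0.77) and Kit did not (-0.41).

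The members without a call are given by their values. Control tumors had a Cd44 level of 125 ± 35.3 CPM (SD, n = 4), against 109 ± 39.0 CPM (SD, n = 4) without CTSD in the epithelium, with a log2 fold change of -0.20 and a 95% confidence interval from -0.85 to 0.45. Control tumor 2 (178 CPM) stood above the other 3 controls (104 to 112 CPM). Cd24a was at 362 to 516 CPM in control and 330 to 423 CPM in MMTV-cre;Ctsd-/- tumors, and Ly6a at 166 to 268 and 161 to 222 CPM. The 2 groups overlapped for both, for Cd24a with 3 of 4 controls above every MMTV-cre;Ctsd-/- tumor. Sox9 was at 87.2 to 151 CPM in control and 70.8 to 169 CPM in MMTV-cre;Ctsd-/- tumors, Sox10 at 121 to 239 and 153 to 328 CPM, and Trp63 at 15.2 to 19.9 and 6.67 to 26.7 CPM. Trp63 was thus about equal in the 4 controls and spread widely in the other group, with the lowest value in tumor 2 and the highest in tumor 3.

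Procr had 2.97, 6.93, 2.93 and 3.53 CPM in control tumors 1 to 4 and 4.07, 3.97, 7.94 and 9.29 CPM in MMTV-cre;Ctsd-/- tumors, a log2 fold change of 0.63 (SE 0.407) with an adjusted p = 0.637. It passed the threshold for tumors without control tumor 2 (1.01) or MMTV-cre;Ctsd-/- tumor 1 or 2 (0.79 each). The 3 highest values belonged to control tumor 2 and MMTV-cre;Ctsd-/- tumors 3 and 4. The same 3 tumors had the highest summed level of 10 endothelial markers (204 CPM in control tumor 2, 529 and 469 CPM in MMTV-cre;Ctsd-/- tumors 3 and 4, against 101 to 190 CPM in the other 5), and the part of vessels in the Procr counts was not tested. Bmi1 had 21.3, 22.6, 31.5 and 39.1 CPM in control tumors and 29.2, 21.0, 18.6 and 19.2 CPM in MMTV-cre;Ctsd-/- tumors, with a log2 fold change of -0.38, an SE of 0.252 and an adjusted p of 0.644. It passed the threshold for tumors without control tumor 1 (-0.50) or MMTV-cre;Ctsd-/- tumor 1 (-0.55). Its 3 highest values, in control tumors 3 and 4 and MMTV-cre;Ctsd-/- tumor 1, were found in the 3 tumors with the largest share of reads on several genes at once (15.5%, 18.8% and 12.0%, against 8.62% to 11.5% in the other 5), and the part of this in the Bmi1 counts was not tested.

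**Figure D2:**
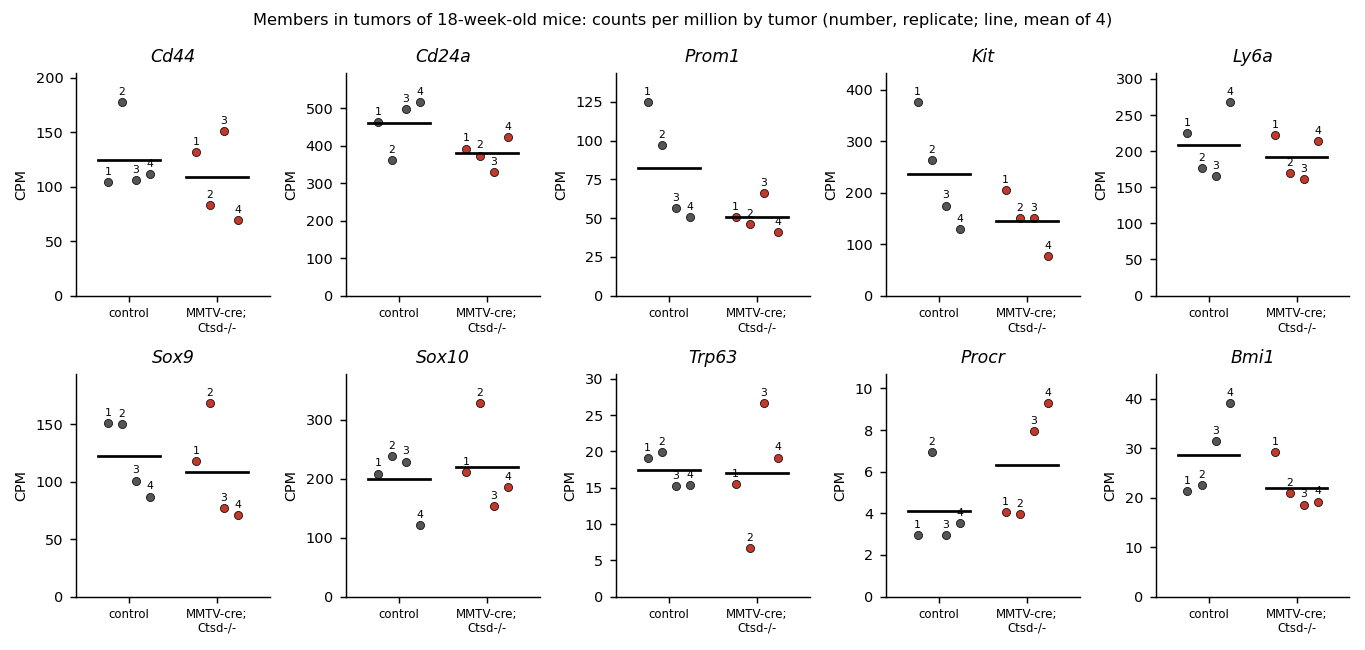
CPM of each member in 4 control and 4 MMTV-cre;Ctsd-/- tumors, with the replicate number above each point and the group mean as a line. The groups overlap for all 10 members, and the lower means of Prom1 and Kit go with the high values of control tumors 1 and 2.

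Markers of other cells moved with genotype in tumors. All 10 adipocyte markers were higher in MMTV-cre;Ctsd-/- tumors at the same threshold, with a summed level of 717 to 6817 CPM in control and 5132 to 39590 CPM in MMTV-cre;Ctsd-/- tumors. Of 10 endothelial markers 7 were higher (101 to 204 and 138 to 529 CPM), and of 13 basal markers 4 were higher, among them Krt17 and Col17a1, with 915 to 1836 and 900 to 2865 CPM. Of 12 luminal progenitor and alveolar markers 0 were higher and 2 lower (36610 to 63280 and 22680 to 44390 CPM), of 7 tested mast cell markers 2 were higher and of 8 Schwann cell markers 3 were higher. The luminal progenitor and alveolar list includes the milk protein genes Csn2, Csn3, Wap and Lalba. Its genes Elf5, Aldh1a3 and Cd14 averaged 154, 48.8 and 561 CPM in control tumors, so its sum stands mostly for other genes. The 14 epithelial markers had 0 calls at this p, with sums of 6751 to 10670 and 6422 to 7874 CPM. With the adipocyte markers as a covariate the log2 fold change of Prom1 was -0.68 and of Kit -0.11, both without a call, and that of Procr was -0.46. Sox10 passed the threshold for tumors with this covariate only, with a log2 fold change of 0.72 against 0.14 without it. The part of the other cells in these values was not tested otherwise.

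The other genes of the members' pathways were counted in tumors at the same threshold, at which 8.44% of all genes were higher and 8.27% lower. Of 30 further mammary stem and progenitor genes 29 were tested, and 7 were higher and 4 lower, with a median log2 fold change of -0.06. Of 14 p53 family genes and p63 targets 3 were higher and 1 lower, with a median of 0.40. The largest difference with separate groups was that of Tspan8, a tetraspanin of luminal and quiescent basal stem cells, with 276 CPM in control and 31.9 CPM in MMTV-cre;Ctsd-/- tumors on average (log2 fold change -3.11). Among 8 tested partners of Kit 2 were higher (Mitf and Sh2b3), and among 8 genes of the protein C pathway 1 was higher, Thbd, the endothelial receptor that presents thrombin to protein C. Of 10 tested Sox genes 2 were higher (Sox17 and Sox6), and of 16 genes of Polycomb repressive complex 1 and its target Cdkn2a 1 was higher (Cbx6) and 1 lower (Cdkn2a).

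In cells, 8 of the 10 members passed the filter, and Kit and Sox10 did not. A call required that the adjusted p was below 0.05 and that the fold change exceeded 1 on the log2 scale in either direction. After 10 days in 1% FCS, 4 members (Cd44, Cd24a, Prom1 and Ly6a) were higher and 2 (Trp63 and Procr) lower in Ctsd-/- cells, where 10.3% of the 15178 genes tested were higher and 14.6% lower. Trp63 had 3 counts or fewer in each of these Ctsd-/- samples. It passed the filter only through other groups, among them the Ctsd+/+ cells where it was higher, and its call carries that limit. The median log2 fold change of the 8 was 0.69, against 0.0002 over all genes. After 12 weeks, 2 members (Prom1 and, with a call that other settings ended, Ly6a) were higher and 1 (Procr) lower, with 9.24% of all genes higher and 10.1% lower, and the median of the 8 was 0.69 against 0.01. An adjusted p under 0.05, without the fold threshold, was reached by 7 members at each time, and the ranges of these 7 were apart. The share of all genes that did so was not counted, so these 7 are not read against a background.

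Prom1 had 0.480, 0.214 and 0.157 CPM in the 3 replicates of 1% FCS Ctsd+/+ cells, which stand for 6 to 16 counts, and 15.6, 5.09 and 3.87 CPM in 1% FCS Ctsd-/- cells. After 12 weeks the Ctsd+/+ cells had 0.297, 0.240 and 0.482 CPM and the Ctsd-/- cells 7.28, 9.42 and 10.8 CPM. All Ctsd-/- samples lay above all Ctsd+/+ samples, although they stayed below every tumor. The log2 fold change was 4.85 (SE 0.604, adjusted p = 5.13e-05) at 10 days and 4.74 (SE 0.589, adjusted p = 7.84e-05) at 12 weeks. The value at 10 days was 3.99 without replicate 1 of the Ctsd-/- cells and 5.45 without replicate 1 of the Ctsd+/+ cells, with its call kept.

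Procr took the opposite direction. It had 6.12, 6.60 and 11.1 CPM in 1% FCS Ctsd+/+ and 0.827, 0.383 and 0.621 CPM in 1% FCS Ctsd-/- cells. The 1% FCS LT values were 5.92, 5.91 and 7.63 CPM with and 0.335, 0.541 and 0.266 CPM without Ctsd. No Ctsd-/- sample came near a Ctsd+/+ sample at either time. The log2 fold change was -3.69 (SE 0.362, adjusted p = 8.80e-06) and -4.08 (SE 0.375, adjusted p = 8.54e-06). For Prom1 and Procr the genotype differences at the 2 times were themselves compared, and differed by -0.12 (95% confidence interval -1.85 to 1.62) and -0.40 (-1.47 to 0.67) on the log2 scale, which did not pass the test.

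Cd44 had 589, 667 and 808 CPM in 1% FCS Ctsd+/+ and 936, 1641 and 1605 CPM in 1% FCS Ctsd-/- cells. The log2 fold change of 1.02 (SE 0.218, adjusted p = 0.00237) was close to the threshold of 1, and leaving out replicate 1 or 2 of the Ctsd+/+ cells or replicate 2 or 3 of the Ctsd-/- cells took it to between 0.887 and 1.00, without a call. In 1% FCS LT the values were 721, 480 and 602 CPM in Ctsd+/+ and 1119, 1202 and 1230 CPM in Ctsd-/- cells, and the log2 fold change of 0.98 (SE 0.218, adjusted p = 0.00390) passed the adjusted p and not the fold threshold, which it passed without replicate 1 of the Ctsd+/+ cells (1.13) or of the Ctsd-/- cells (1.02). At both times the groups were apart. The change of this difference between the times was -0.04 (95% confidence interval -0.71 to 0.63).

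Cd24a had 243, 188 and 219 CPM in 1% FCS Ctsd+/+ and 541, 592 and 601 CPM in 1% FCS Ctsd-/- cells, a log2 fold change of 1.42 (SE 0.124, adjusted p = 3.93e-06). After 12 weeks the levels were 315, 340 and 303 CPM in Ctsd+/+ and 436, 466 and 548 CPM in Ctsd-/- cells, a log2 fold change of 0.60 (SE 0.122, adjusted p = 0.00229). The Ctsd-/- samples were above the Ctsd+/+ samples at both times, by less after 12 weeks, and the change of the difference, -0.82 (SE 0.173, adjusted p = 0.00403), passed the adjusted p and not the fold threshold.

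Ly6a had 55.3, 20.3 and 22.8 CPM in 1% FCS Ctsd+/+ and 275, 382 and 362 CPM in 1% FCS Ctsd-/- cells. After 12 weeks it had 85.4, 112 and 110 CPM in Ctsd+/+ and 122, 219 and 294 CPM in Ctsd-/- cells. The groups were far apart at 10 days and close after 12 weeks, where replicate 1 of the Ctsd-/- cells (122 CPM) lay just above the highest Ctsd+/+ sample. The log2 fold change was 3.37 (SE 0.407, adjusted p = 4.09e-05) at 10 days and 1.04 (SE 0.374, adjusted p = 0.0436) at 12 weeks. The call at 12 weeks was lost on leaving out any of the 6 samples but replicate 1 of the Ctsd-/- cells, with values from 0.735 to 1.11. It was also lost with the replicate number as a block (adjusted p = 0.0685), with limma-voom (0.964) and in the single run (0.785). The change between the times, -2.33 (SE 0.531, adjusted p = 0.00637), was the single call among the members in the comparison of the 2 genotype differences. Without replicate 1 of 1% FCS Ctsd+/+ cells, the highest of its group, the value at 10 days was 3.98 and the change between the times -2.93, both called. In that comparison 11.0% of all genes were higher and 8.12% lower.

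**Figure D3:**
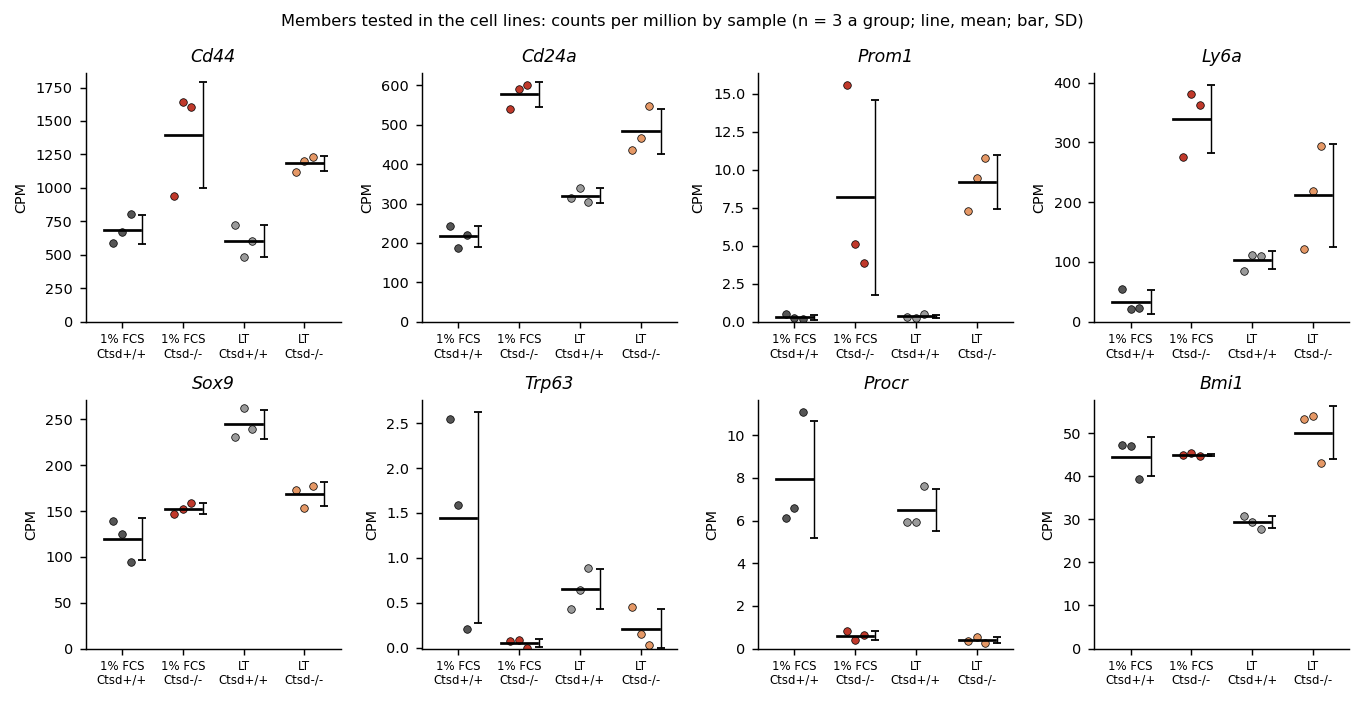
CPM of the 8 members tested in cells, shown for the 3 replicates of every group, the mean as a line and the SD as a bar. Prom1, Cd44 and Cd24a lie above and Procr lies below the Ctsd+/+ samples in all Ctsd-/- samples of the same culture time, and Ly6a and Sox9 are higher in 1% FCS LT than in 1% FCS Ctsd+/+ cells.

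The transcription factors gave smaller differences or rested on few counts. Sox9 had 139, 125 and 94.4 CPM in 1% FCS Ctsd+/+ and 146, 152 and 159 CPM in 1% FCS Ctsd-/- cells (log2 fold change 0.35, SE 0.131, adjusted p = 0.0415), and 231, 262 and 240 CPM in 1% FCS LT Ctsd+/+ against 173, 153 and 178 CPM in 1% FCS LT Ctsd-/- cells (log2 fold change -0.54, SE 0.131, adjusted p = 0.00630). The sign of its genotype difference thus changed with culture time, by -0.89 (SE 0.185, adjusted p = 0.00359), which is below the fold threshold and passed it without replicate 1 of 1% FCS Ctsd+/+ cells (-1.01). Trp63 had 2.55, 1.59 and 0.209 CPM in 1% FCS Ctsd+/+ cells and 0 to 3 counts in each 1% FCS Ctsd-/- sample. Its fitted genotype difference had an adjusted p = 0.00394 in edgeR, with a size that the counts do not determine. Apart from that test, 3 counts stand for 0.0887 CPM in the smallest library of the 1% FCS Ctsd-/- cells. The Ctsd+/+ mean was at least 16.3-fold higher than this level, and at least 10.1-fold higher without replicate 1. Replicate 3 of the Ctsd+/+ cells, with 8 counts, lay closest to it. After 12 weeks Trp63 had 0.432, 0.639 and 0.887 CPM in Ctsd+/+ and 0.455, 0.154 and 0.0242 CPM in Ctsd-/- cells, with overlapping groups (log2 fold change -1.61, SE 0.906, adjusted p = 0.183).

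Bmi1 had 47.3, 47.0 and 39.3 CPM in 1% FCS Ctsd+/+ and 44.9, 45.3 and 44.8 CPM in 1% FCS Ctsd-/- cells, with a log2 fold change of 0.02 and a 95% confidence interval from -0.23 to 0.26. After 12 weeks it stood at 30.7, 29.4 and 27.8 CPM in Ctsd+/+ and 53.3, 54.0 and 43.1 CPM in Ctsd-/- cells, a log2 fold change of 0.78 (SE 0.112, adjusted p = 0.000220). The 1% FCS LT Ctsd+/+ samples were the lowest of the 12, and the difference between the times, 0.76 (SE 0.157, adjusted p = 0.00364), passed the adjusted p and not the fold threshold.

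**Figure D4:**
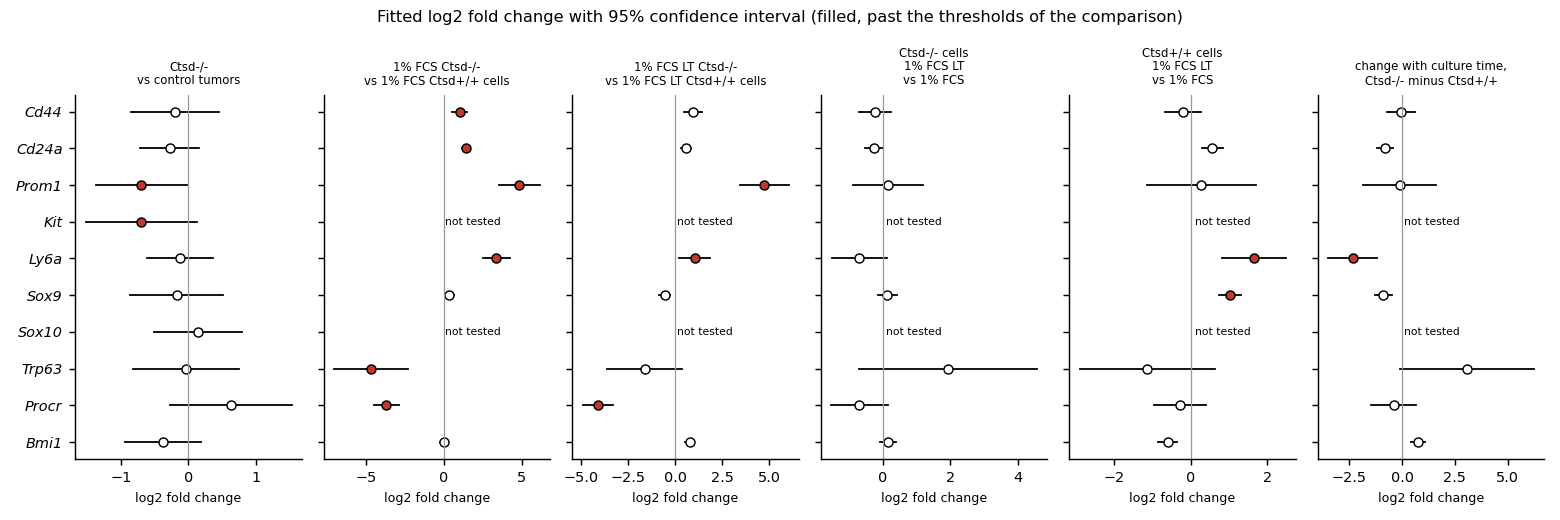
Fitted log2 fold change of each member with its 95% confidence interval in the tumor comparison and in 5 comparisons of cells, on a scale of its own in each panel, with filled points for values past the thresholds of that comparison. In cells Prom1 (4.85 and 4.74) and Procr (-3.69 and -4.08) lie far from 0 in both genotype comparisons, and no member is filled in the comparison of the 2 culture times of Ctsd-/- cells. The size drawn for Trp63 in 1% FCS is not determined by the counts.

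The change with culture time was tested within each genotype. In Ctsd-/- cells 0 of the 8 members were called between 12 weeks and 10 days, with 0 at an unadjusted p under 0.05 in edgeR and 0 calls in DESeq2 and in limma-voom, and the background was low, with 1.11% of all genes higher and 0.369% lower. Beside Trp63, which had 3 counts or fewer in each 1% FCS Ctsd-/- sample, the largest fitted values were those of Procr (log2 fold change -0.69, 95% confidence interval -1.52 to 0.15) and Ly6a (-0.68, -1.49 to 0.13). In the 8 samples of the single run that held all 4 groups, Ly6a passed both thresholds in this comparison (-1.13, adjusted p = 0.0477). In Ctsd+/+ cells Ly6a (log2 fold change 1.64, SE 0.382, adjusted p = 0.00411) and Sox9 (1.03, SE 0.132, adjusted p = 7.03e-05) were higher after 12 weeks (Ly6a by 2.25 without replicate 1 of 1% FCS Ctsd+/+ cells), where 11.0% of all genes were higher and 12.3% lower. Cd24a (0.56, adjusted p = 0.00279) and Bmi1 (-0.60, adjusted p = 0.000963) passed the adjusted p alone. Without replicate 3 of 1% FCS Ctsd+/+ cells, or without replicate 2 of 1% FCS LT Ctsd+/+ cells, Sox9 had a log2 fold change of 0.89 or 0.98 and no call. These comparisons share their 1% FCS samples with the genotype comparison at 10 days.

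The log2 ratio of Cd44 to Cd24a, computed within each library from CPM, separated tumors from cells and did not separate the genotypes. It was -2.23 to -1.03 in control and -2.61 to -1.13 in MMTV-cre;Ctsd-/- tumors, so that Cd24a was the higher in all 8 tumors. In cells it was 1.28 to 1.88 in 1% FCS Ctsd+/+, 0.79 to 1.47 in 1% FCS Ctsd-/-, 0.50 to 1.20 in 1% FCS LT Ctsd+/+ and 1.17 to 1.37 in 1% FCS LT Ctsd-/- cells, so that Cd44 was the higher in all 12 samples. The means in cells, 1.66, 1.23, 0.89 and 1.30, lay within ranges that overlapped in part between the genotypes at both times. The direction in cells depends on transcript length, which the ratio does not remove. Per kilobase of exon Cd24a had the higher mean in 3 of the 4 groups of cells, and Cd44 in 1% FCS Ctsd+/+ cells. The ratio is a description without a test.

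**Figure D5:**
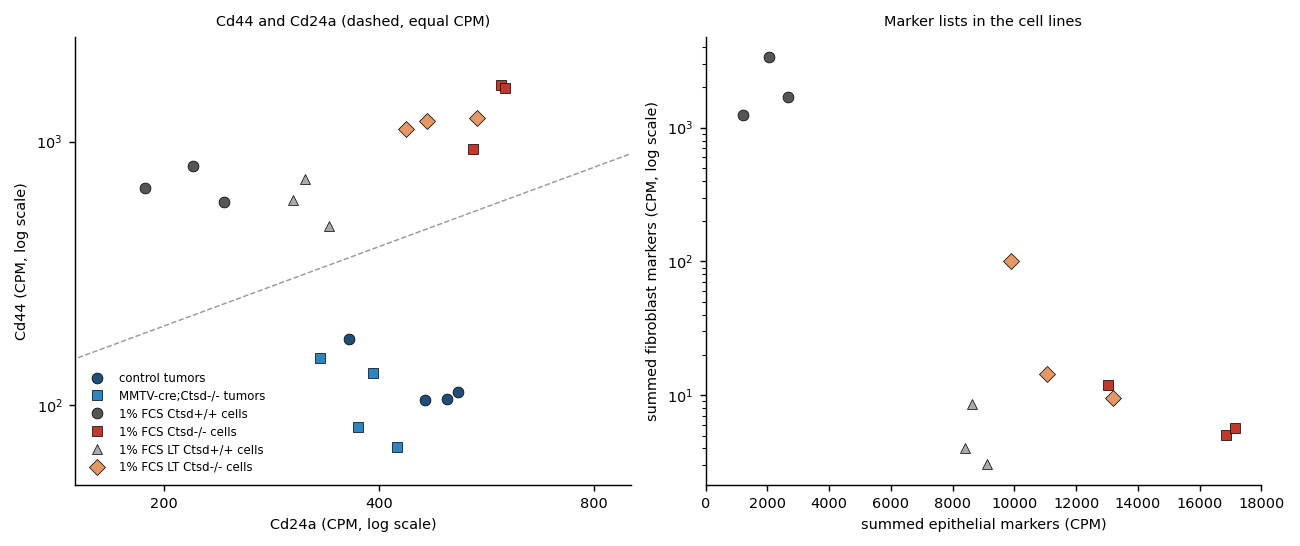
Left, CPM of Cd44 against Cd24a in each of the 20 samples on log axes, with a dashed line at equal CPM. Right, summed CPM of 10 fibroblast markers (log axis) against 14 epithelial markers in the 12 cell samples. All cell samples lie above and all tumors below the line, and the 3 samples of 1% FCS Ctsd+/+ cells stand apart by high fibroblast and low epithelial sums.

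Within the members, the levels over the 12 cell samples went together for Cd24a and Ly6a (Pearson r = 0.974 of log2 CPM) and for Cd24a and Prom1 (0.874) and in opposite ways for Prom1 and Procr (-0.947). Over the 8 tumors Prom1 and Kit (0.873) and Sox9 and Sox10 (0.744) went together. Among all genes with an average log2 CPM above 1, those most like a member in cells were Timm10 and Polr2h for Cd44, Copg2 and Tgfa for Cd24a, Ric1 and Map3k2 for Prom1, Glyr1 and Cd24a for Ly6a, 4732490B19Rik and Cracr2b for Sox9, Nfrkb and Glis3 for Trp63, Ttc23 and Trit1 for Procr and Prkacb and Tiam2 for Bmi1, with r from 0.953 for Glis3 to 0.988 for Glyr1. In tumors they were Cd14 and Sptlc2 for Cd44, Klhl23 and Lekr1 for Cd24a, Mgp and Hs3st3b1 for Prom1, Ttll4 and Boc for Kit, Leprotl1 and Rpp40 for Ly6a, Hpn and Col8a2 for Sox9, Deaf1 and Tm7sf3 for Sox10, Rnf4 and Kbtbd2 for Trp63, Htra3 and Serpina3n for Procr and Eny2 and Atp6v1g1 for Bmi1, with r from 0.937 for Hs3st3b1 and Sptlc2 to 0.997 for Eny2. These are descriptions over points that share groups, lines and runs.

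The other genes of the members' pathways were counted in the 2 genotype comparisons of cells, at the thresholds for cells. Of all genes tested, 10.3% were higher and 14.6% lower in 1% FCS, and 9.24% and 10.1% in 1% FCS LT. After 12 weeks against 10 days, 1.11% were higher and 0.369% lower in Ctsd-/- cells, and 11.0% and 12.3% in Ctsd+/+ cells. These shares go with every list counted below. Of 25 tested further mammary stem and progenitor genes, 6 were higher and 9 lower in 1% FCS, and 8 higher and 5 lower in 1% FCS LT. Aldh1a3, a retinaldehyde dehydrogenase of luminal progenitors, was at 16.5 CPM in 1% FCS Ctsd+/+ and 0.128 CPM in 1% FCS Ctsd-/- cells and at 4.05 and 0.187 CPM in 1% FCS LT, lower at both times. Sox11, a Sox factor of embryonic mammary tissue, followed the same order, with 14.2 and 0.116 CPM at 10 days and 6.64 and 0.0246 CPM at 12 weeks. In Ctsd-/- cells Aldh1a3 had at most 7 counts in a sample at 10 days and 15 at 12 weeks, and Sox11 at most 12 and 1. The low levels of both genes thus rest on few counts. Both passed the filter on low counts only through Ctsd+/+ groups, where they were higher, and their calls carry that limit. Zeb1, a repressor of epithelial genes, took opposite directions at the 2 times, with 80.4 CPM in Ctsd+/+ and 0.811 CPM in Ctsd-/- cells at 10 days and 1.81 and 14.0 CPM at 12 weeks. The 12-week Ctsd-/- samples spread widely for Zeb1, from 3.145 to 23.06 CPM. Zeb1 was the single gene of this list called between the culture times of Ctsd-/- cells. All 14 epithelial markers were higher in 1% FCS Ctsd-/- than Ctsd+/+ cells and all 14 were higher in Ctsd+/+ cells after 12 weeks than after 10 days, whereas 0 were higher and 2 lower, Esrp1 and Cdh1, between the genotypes in 1% FCS LT.

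Among partners of Cd44 and Cd24a, Vim, the mesenchymal intermediate filament, was at 3066 CPM in 1% FCS Ctsd+/+ and 9.82 CPM in 1% FCS Ctsd-/- cells, and at 3.70 and 451 CPM after 12 weeks, lower and then higher in Ctsd-/- cells. Vcan, a proteoglycan that binds hyaluronan, was lower in Ctsd-/- cells at both times (103 and 1.45 CPM, then 70.3 and 1.47 CPM). Esrp1, a splicing factor that sets the epithelial form of Cd44, was at 55.6 and 151 CPM in 1% FCS and at 270 and 114 CPM in 1% FCS LT, higher and then lower in Ctsd-/- cells. Of 11 tested genes of this list 2 were higher and 5 lower in 1% FCS, and 3 higher and 2 lower in 1% FCS LT.

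The Ly6 family, which shares sequence with Ly6a, had 4 of 7 tested genes higher and 0 lower in 1% FCS and 2 higher and 2 lower in 1% FCS LT. Ly6c1 was at 4.72 CPM in 1% FCS Ctsd+/+ and 74.7 CPM in 1% FCS Ctsd-/- cells, and at 8.52 and 46.3 CPM in 1% FCS LT. Ly6c1 was thus higher in Ctsd-/- cells at both times, as was Ly6a, whose call at 12 weeks other settings ended. Ly6c1 is also the gene that shares the most stretches of 50 bases with Ly6a, and the part of this in their counts was not tested. In the protein C pathway of Procr, 1 of 7 tested genes was higher and 3 were lower in 1% FCS, and 4 were higher and 1 lower in 1% FCS LT. Thbd was at 89.3 CPM in Ctsd+/+ and 15.5 CPM in Ctsd-/- cells at 10 days and at 5.06 and 23.4 CPM at 12 weeks, so that it was lower and then higher in Ctsd-/- cells while Procr was lower at both times.

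Of 8 tested Sox genes 3 were higher and 3 lower in 1% FCS, and 3 higher and 2 lower in 1% FCS LT. Of 13 tested p53 family genes and p63 targets 6 were higher and 2 lower in 1% FCS and 4 higher and 2 lower in 1% FCS LT. Krt14, a basal keratin and target of p63, was at 38.4 and 6.79 CPM in 1% FCS and at 53.1 and 3.87 CPM in 1% FCS LT, lower in Ctsd-/- cells at both times, and Trim29 was at 0.0765 and 1.80 CPM and at 0.167 and 1.40 CPM, higher at both. The Trim29 mean in 1% FCS Ctsd+/+ cells lay under the 0.0785 to 0.0916 CPM that 3 counts stand for in those samples. Trim29 passed the filter on low counts through Ctsd-/- groups, where it was higher, and its calls carry that limit. Of 16 genes of Polycomb repressive complex 1 with Cdkn2a, 4 were higher and 0 lower in 1% FCS, and 1 was higher (Rnf2) and 1 lower (Cbx2) in 1% FCS LT. Cdkn2a was at 2.31 CPM in 1% FCS Ctsd+/+ and 28.6 CPM in 1% FCS Ctsd-/- cells, and at 10.0 and 18.3 CPM in 1% FCS LT. Among 8 partners of Kit, Pik3r1, the regulatory subunit of phosphoinositide 3-kinase, was lower in Ctsd-/- cells at both times (86.4 and 33.9 CPM, then 102 and 44.9 CPM) and no other was called between the genotypes. Kitl, the ligand of Kit, was at 15.4 and 16.4 CPM in 1% FCS and at 52.3 and 33.4 CPM in 1% FCS LT, and was higher after 12 weeks in Ctsd+/+ cells.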

How the data were processed

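RNA of 8 tumors and 12 cell samples was sequenced. Trimmomatic and STAR (GRCm38/mm10) were used by the authors, whose deposited files hold whole-number counts for each Ensembl gene, not normalized, in 3 forms (regardless of strand, same strand, opposite strand). Reads with several mapping positions or on several genes were left out of the counts. The opposite strand held 52.8% to 53.7% of strand-assigned counts in tumors and 97.1% to 97.3% in cells, so counts regardless of strand were used for tumors and those of the opposite strand for cells. The 4 lines that name no gene were left out. Symbols, positions and exon lengths came from GENCODE M21, in which 45143 of 45706 identifiers were found. Its release was not stated by the authors. Promoter windows are from RefSeq (GRCm38.p6) and were found for 5 of the 10 members.

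Counts were fitted in R 4.3.3 with edgeR 4.0.16 (filterByExpr, TMM, two-sided quasi-likelihood F-test, Benjamini-Hochberg adjustment over the 18617 genes of tumors or the 15178 of cells). All adjusted p-values are edgeR's. The 8 tumors were fitted together, and so were the 12 cell samples. CPM are counts scaled by TMM library sizes, and the likeness of genes used log2 CPM. Genotype differences were compared as an interaction, the Ctsd-/- minus Ctsd+/+ difference at 12 weeks less that at 10 days. The script was tested on simulated counts with 200 changed genes. The alternatives were DESeq2 1.42.0, limma-voom (limma 3.58.1), DESeq2 size factors, no filter, the other count forms (stranded forms summed in tumors, counts regardless of strand in cells), the replicate number as a block, the adipocyte markers as a covariate, a single run as read from the codes, the 2 groups alone and each sample left out. Named genes are all members, the 2 genes most like each, and from each pathway list up to 2 genes called in a comparison, those of the largest absolute log2 fold change whose groups do not overlap, with their values in the other comparisons. Ly6c1, Thbd, Krt17, Col17a1, the genes named beside a count of 2 or fewer in tumors and the fibroblast markers named singly include some outside this rule, chosen after their values were seen. The values of 1 gene of the pathway lists are not reported here. The members and lists were chosen with earlier results of these data known.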

Additional observations from a re-analysis of the deposited data

Results flagged for a closer look

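Among 20 groups of 4 tumors (10 members in 2 genotypes), 2 held a value far from the other 3, and chance gives such a value in about 1 of 20 groups. Both were in control tumor 2. Cd44 was at 177.7 CPM there and at 104 to 112 CPM in the other controls, and Procr at 6.93 CPM there and at 2.93 to 3.53 CPM in the others. Without this tumor the log2 FC of Cd44 was 0.02 and that of Procr was 1.01, past the threshold for tumors. The same tumor had the highest summed levels of fibroblast (3607 CPM), macrophage (1125 CPM) and endothelial (204 CPM) markers among the controls.

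Ly6a was the single member whose genotype difference changed with culture time past both thresholds, with a log2 difference of -2.33 (SE 0.531, adjusted p = 0.00637 in edgeR). All 3 samples of 1% FCS Ctsd+/+ cells lay under 56 CPM and all of the 1% FCS Ctsd-/- cells over 274 CPM, while the groups almost met after 12 weeks. The value holds the 1% FCS Ctsd+/+ samples, whose epithelial and fibroblast markers stand apart.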

How the results depend on the processing

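Of the values of single members, 368 kept their direction and their side of the threshold under the alternatives other than leaving out 1 sample, 4 newly passed, 8 no longer passed and 10 changed sign. With 1 sample left out these numbers were 317, 9, 19 and 23. In tumors 2 members were called, and 1 with limma-voom (Prom1), with the adipocyte covariate (Sox10, at 0.722) or without MMTV-cre;Ctsd-/- tumors 3 and 4 (Prom1, added after the data were seen), and 0 to 4 with 1 tumor left out. All genes called there were 1572 higher and 1540 lower, and 2703 and 2734 without a filter, 786 and 726 with the covariate, 510 and 595 without the 2 tumors, 980 to 2156 and 827 to 2309 with 1 left out. Sox9 turned to 0.383 and Procr to -0.463 with the covariate, and to 0.231 and -0.023 without the 2 tumors. With 1 tumor left out the log2 FC ran from -0.399 to 0.019 for Cd44, -0.22 to 0.024 for Ly6a, -0.119 to 0.28 for Sox10 and -0.334 to 0.233 for Trp63.

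In Ctsd-/- cells over time, 169 genes were higher and 56 lower, and 406 and 106 with DESeq2, 383 and 92 without a filter, 405 higher in the single run, 85 lower with the 2 groups alone, and 27 to 233 and 20 to 58 with 1 sample left out. In the single run 1 member, Ly6a, was called there, and 3 (Ly6a, Cd24a and Sox9) were called in the comparison of genotype differences, where 1 to 2 were called with 1 sample left out, as in Ctsd+/+ cells over time (1 to 2). Bmi1 in 1% FCS turned to -0.003 with DESeq2 size factors and ran from -0.088 to 0.061. In the comparison of genotype differences Cd44 was 0.004 with limma-voom and -0.261 to 0.111 with 1 left out, Prom1 was 0.021 with limma-voom, 0.358 in the single run and -0.713 to 0.754 with 1 left out, and Procr was 0.386 in the single run. Prom1 over time ran from -0.173 to 1.03 in Ctsd-/- and from -0.061 to 0.874 in Ctsd+/+ cells, and Procr in the latter from -0.452 to 0.029. The cause of these changes was not tested.

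Without replicate 3 of 1% FCS Ctsd+/+ cells Trp63 passed in the comparison of genotype differences. Cd44 in 1% FCS (0.993) had no call with limma-voom. Ly6a in 1% FCS LT had no call with limma-voom (0.964) or in the single run (0.785). Same-numbered samples were not paired: replicate 1 of both genotypes in 1% FCS and replicate 3 of both in 1% FCS LT also shared a run, but the correlation of their deviations was not above 0.1 for every pair, at -0.303 to -0.008 in tumors and -0.143 to 0.362 in cells. With the replicate number as a block, 711 genes were lower in tumors, Ly6a in 1% FCS LT lost its call (adjusted p = 0.0685), and Prom1 in the comparison of genotype differences was 0.039. The block changed no other call of a member. Depth limits Kit, Sox10 and Trp63 in cells, which rest on a few counts, as do the low levels of Aldh1a3, Sox11 and Trim29 there.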
